A study of Mus musculus with 18 samples.

Results

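Dab2, Lrp2, Amn and Cubn encode the apical endocytosis machinery of extraembryonic and other absorptive epithelia, and their mRNAs were followed in mouse embryos with and without Oct4. The 4 genes were looked up by symbol through their Ensembl identifiers in the table of each stage. Of the 4, 3 were found among the 8202 genes that the tables hold in all. Dab2 (ENSMUSG00000022150) and Lrp2 (ENSMUSG00000027070) were listed at all 3 stages, Amn (ENSMUSG00000021278) at the later stages, and Cubn in no table, so that 2 of 7082, 3 of 6648 and 3 of 6545 genes of the successive tables were members. The listed genes all had at least 10.3 CPM in no fewer than 3 of their 6 libraries, so a gene that stayed below that level would not appear, and no value is given for Cubn, or for Amn at E2.5. CPM is the number of reads of a gene per 1000000 reads of all genes in the same table.

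Lrp2 (megalin) is a large transmembrane receptor of the low-density lipoprotein (LDL) receptor family that binds lipoproteins and vitamin carriers. Cubilin, the product of Cubn, has no membrane-spanning part of its own and is carried to the apical surface by amnionless, the product of Amn. Dab2 is the clathrin adaptor that gathers these receptors into coated pits. In the mouse embryo the complex is known from trophectoderm, primitive endoderm and the visceral endoderm that forms from it, where Dab2 is also needed to keep the surface epithelium ordered.

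The embryos were of the CD1 strain, either Oct4 -/- (called null here, by the label; Oct4 is the pluripotency factor encoded by Pou5f1) or Oct4 +/+ (wild type). They were flushed from oviducts or uteri on 3 embryonic days: E2.5, a cleavage stage, then E3.75 and E4.5, when the blastocyst has formed. Each genotype had 3 libraries per stage, 18 in all, described as 3 embryos per genotype and time point. No treatment was given, and how Oct4 was inactivated, and in which cells, is not stated in the labels. RNA was primed with oligo(dT), so the reads may lie mostly near the 3′ ends of transcripts, but their positions were not measured.

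Pou5f1, the targeted gene, averaged 968 ± 40.1 CPM in null and 1875 ± 194 CPM in wild type libraries at E2.5, 258 ± 33.3 and 509 ± 115 CPM at E3.75, and 111 ± 26.9 and 231 ± 45.9 CPM at E4.5 (SD, n = 3 each), with every null library below every wild type library of its stage. Its mRNA was lower in null libraries but not absent, at 0.518, 0.514 and 0.483 of the wild type level on the log2(CPM + 1) scale. Whether the reads lie in the inactivated part of the gene is not stated, so this level does not check whether the factor itself was lost. Depth ranged from 364936 to 1922432 reads per library, with medians of 1314657 to 1917754 in the null groups and 543033 to 916720 in the wild type groups. When each library was written as the best blend of its 2 group mates, the residual variance was 1.09 to 1.29 times that of read sampling in the 6 libraries given as the third of their groups. It was 1.39 to 3.06 times in the 12 others. If the third libraries are not independent, standard errors and p-values from all libraries are too small, so the main calls are also given from the first 2 libraries of each group. Each p-value is set by the variation among libraries of a group, which may be partly technical.

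Dab2 was the member whose level passed the test between genotypes, at E3.75. At E3.75 the null libraries held 1016, 925 and 1018 CPM, against 589, 673 and 627 CPM in wild type libraries. All 3 null libraries lay above all 3 wild type libraries, and the gap between the groups was wider than the spread within either. The means were 986 ± 53.2 CPM in null and 630 ± 42.4 CPM in wild type libraries (SD, n = 3 each), a fold of 1.57 with a 95% interval of 1.39 to 1.76. On the log2(CPM + 1) scale this was 0.65 (SE 0.08, adjusted p = 3.16e-05 in limma over 6648 genes), and it was the 10th smallest p of the table. At this stage limma called 8.2% of all genes, 3.6% higher and 4.6% lower in null libraries, while 27.2% had groups that did not overlap and 11.4% had null libraries above wild type libraries. On the reads, edgeR (adjusted p = 5.26e-07, 8.3% of genes called) and DESeq2 (adjusted p = 2.24e-09, 6.65% of the 4328 genes it gave an adjusted p) also called Dab2. The values rest on 879 to 1463 reads of Dab2 in null and 313 to 793 in wild type libraries. With the first 2 libraries of each group Dab2 also passed (log2 difference 0.62, adjusted p = 0.00123), as it did with any single library left out (0.60 to 0.70). In whole embryos more cells of a type and more RNA per cell cannot be told apart.

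Before the blastocyst Dab2 showed no such difference. At E2.5 it stood at 559, 672 and 637 CPM in null libraries and 675, 571 and 620 CPM in wild type libraries. The groups overlapped and their means were nearly equal, at 623 ± 57.8 CPM in null and 622 ± 51.9 CPM in wild type libraries (SD, n = 3 each). The fold was 1.00 with a 95% interval of 0.861 to 1.16 (adjusted p = 0.999, limma), so a difference as large as that of E3.75 lies outside this interval. Of all genes of E2.5, limma called 0.593%, with 0.409% higher in null libraries, edgeR called 2.53%, and the groups of 27.8% did not overlap. DESeq2 called 4.27% of the 5434 genes it gave an adjusted p.

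At E4.5 Dab2 had 575, 683 and 652 CPM in null libraries and 482, 570 and 538 CPM in wild type libraries. Each null library was above each wild type library, as was the case for 12.2% of all genes at this stage. Means were 637 ± 55.4 CPM in null and 530 ± 44.3 CPM in wild type libraries (SD, n = 3 each), a fold of 1.20 (95% interval 1.02 to 1.42). The difference did not pass the threshold over all genes (log2 difference 0.26, SE 0.11, adjusted p = 0.284, limma). No gene passed in limma at E4.5, where 985 of 6545 genes had an unadjusted p under 0.05, edgeR called 42 (0.642%) and DESeq2 112 (4.29% of the 2611 genes it gave an adjusted p).

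Which start of Dab2 was used cannot be read from values per gene. The tables list 1 transcript of Dab2, ENSMUST00000080880, of 14 in the GENCODE annotation of GRCm38, a later build than the mm9 named in the submitters' processing notes. Dab2 overlaps an antisense gene, Gm16311, and a pseudogene, Gm18888, both on the other strand. RefSeq holds 2 promoter windows of Dab2 on that build, shown because Dab2 is the member that differed between genotypes. The first is chr15:6299539-6299788 and the second chr15:6386498-6386747, both on the + strand and each the 250 bases before an annotated start. The listed transcript begins within the second, at position 6386598.
Dab2, first start: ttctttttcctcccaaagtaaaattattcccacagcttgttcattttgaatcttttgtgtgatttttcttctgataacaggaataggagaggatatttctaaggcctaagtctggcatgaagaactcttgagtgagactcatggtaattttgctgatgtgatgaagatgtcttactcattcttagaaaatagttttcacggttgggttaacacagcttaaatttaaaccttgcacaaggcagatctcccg
Dab2, second start: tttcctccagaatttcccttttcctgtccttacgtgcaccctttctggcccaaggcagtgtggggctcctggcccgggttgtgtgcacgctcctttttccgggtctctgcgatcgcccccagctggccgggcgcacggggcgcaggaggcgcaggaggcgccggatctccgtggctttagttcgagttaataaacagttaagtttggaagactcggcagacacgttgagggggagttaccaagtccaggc
The first window is 36.8% G and C and the second 60%. Neither holds the octamer ATGCAAAT that Oct4 can bind, the GATA motif form AGATAA or the TEAD motif form GGAATG on either strand. For that reason no base is in capitals. Only these exact strings were searched, so other forms of the motifs were missed, such as the GATA form TGATAA in the first window. Of 32851 windows of the same length, 1.6% hold the octamer, 9.99% AGATAA and 12.6% GGAATG. The lack of these strings says nothing of binding, in these windows or elsewhere.

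**Figure D1:**
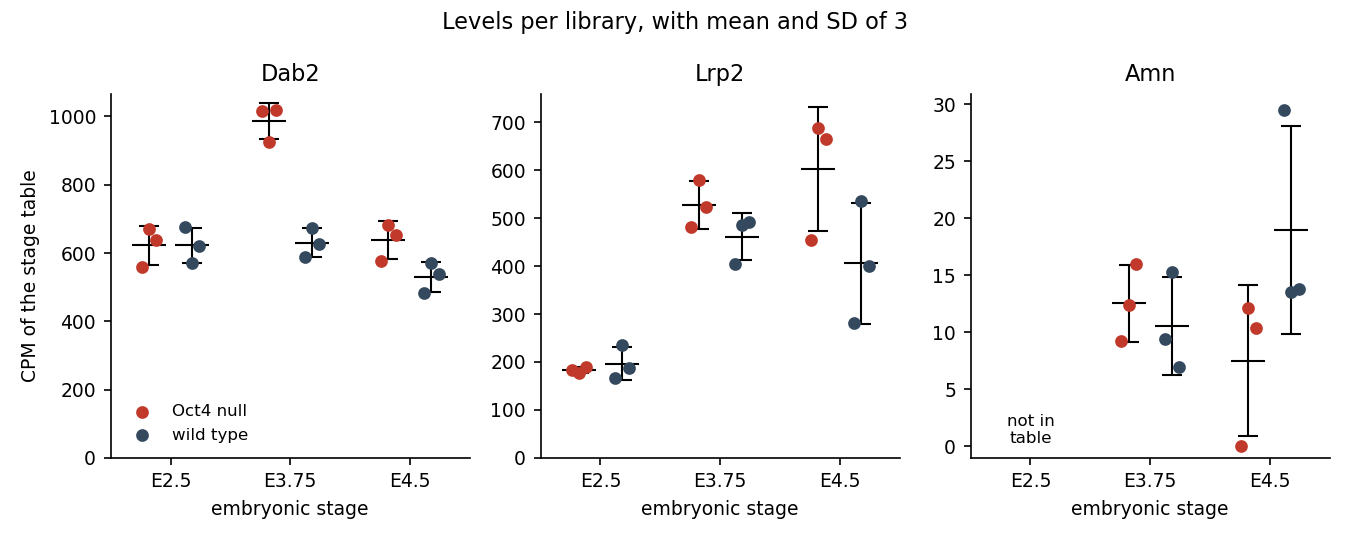
Level of each measured member in CPM of its stage table (y axes differ between panels) against embryonic stage, with 1 point per library, Oct4 null in red and wild type in blue, and bars for the mean and SD of 3 libraries. The 3 null libraries of E3.75 lie between 925 and 1018 CPM of Dab2, above wild type libraries at 589 to 673 CPM, while the other pairs of groups lie closer together or overlap.

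The null effect on Dab2 was compared between stages in a fit over all 18 libraries and the 5430 genes common to the 3 tables. The log2 difference, null minus wild type, was greater at E3.75 than at E2.5 by 0.65 (95% interval 0.36 to 0.93, adjusted p = 0.0317, limma), a contrast in which 1.12% of all genes were called. The E3.75 libraries entered both this contrast and the E3.75 result. Without the third libraries the value was 0.64 but did not pass (adjusted p = 0.876), and with single libraries left out the adjusted p ran from 0.0103 to 0.0997. The effect at E4.5 was lower than at E3.75 by 0.38 (interval -0.67 to -0.10), which did not pass (adjusted p = 0.213), and 0.0921% of genes were called in that contrast. Averaged over the 3 stages, Dab2 was higher in null libraries by 0.30 on the log2 scale (SE 0.06, adjusted p = 0.000913), in a contrast that called 10.4% of genes. That average takes most of its size from E3.75, and with the first 2 libraries of each group it did not pass (0.29, adjusted p = 0.214).

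Lrp2, the receptor, followed stage more than genotype. At E2.5 it stood at 184, 177 and 189 CPM in null libraries and 167, 235 and 187 CPM in wild type libraries. The null values lay inside the range of the wild type values (fold 0.944, 95% interval 0.764 to 1.17, adjusted p = 0.766, limma). At E3.75 it had 481, 580 and 522 CPM in null libraries, against 404, 486 and 493 CPM in wild type libraries. The groups overlapped, since the lowest null library was below 2 of the wild type libraries, and the fold of 1.15 (95% interval 0.992 to 1.32) did not pass (log2 difference 0.20, adjusted p = 0.249, limma).

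At E4.5 Lrp2 spread widely within each genotype. Null libraries held 455, 688 and 666 CPM and wild type libraries, whose columns have no replicate number and are lettered A to C here, held 282, 535 and 401 CPM. Null library 1, the shallowest at 364936 reads, was below wild type library B, so the groups overlapped. That null library also stood apart in the globin Hba-a1, at 145 CPM against 24.3 and 41.7 CPM in the other null libraries. Means were 603 ± 129 CPM in null and 406 ± 127 CPM in wild type libraries (SD, n = 3 each), a fold of 1.51 with a 95% interval of 1.09 to 2.10. The difference did not pass in limma (log2 difference 0.59, SE 0.22, adjusted p = 0.232), in edgeR's quasi-likelihood test (0.143) or in DESeq2 (0.0815), and passed in the fit over all 18 libraries (adjusted p = 0.0484). With the first 2 libraries of each group the log2 difference was 0.53 and did not pass (adjusted p = 0.832, limma). Leaving out null library 1 gave 0.79 (adjusted p = 0.0588), leaving out wild type library A gave 0.36 and leaving out wild type library B gave 0.82. Leaving out either of these wild type libraries moved the value by more than its standard error.

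Differences of the Lrp2 effect between stages did not pass. The log2 difference, null minus wild type, was greater at E4.5 than at E2.5 by 0.68 (95% interval 0.18 to 1.18, adjusted p = 0.154, limma, with 1.01% of genes called), and passed without wild type library B of E4.5 (0.90, adjusted p = 0.0295) or null library 1 of E4.5 (0.87, adjusted p = 0.0496). Between E3.75 and E2.5 the difference was 0.28 (adjusted p = 0.652). Averaged over stages the effect was 0.24 (95% interval 0.03 to 0.44, adjusted p = 0.135), and it passed without the same single libraries of E4.5, wild type library B (0.31, adjusted p = 0.0252) or null library 1 (0.30, adjusted p = 0.033). With the first 2 libraries of each group neither passed in limma. E4.5 minus E2.5 was then 0.66 (adjusted p = 0.713) and the average 0.21 (adjusted p = 0.591). Null library 3 of E4.5 was close to a blend of null libraries 1 and 2 (residual variance 1.11 times that of read sampling). The spread in fits without null library 1 may therefore be too small.

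**Figure D2:**
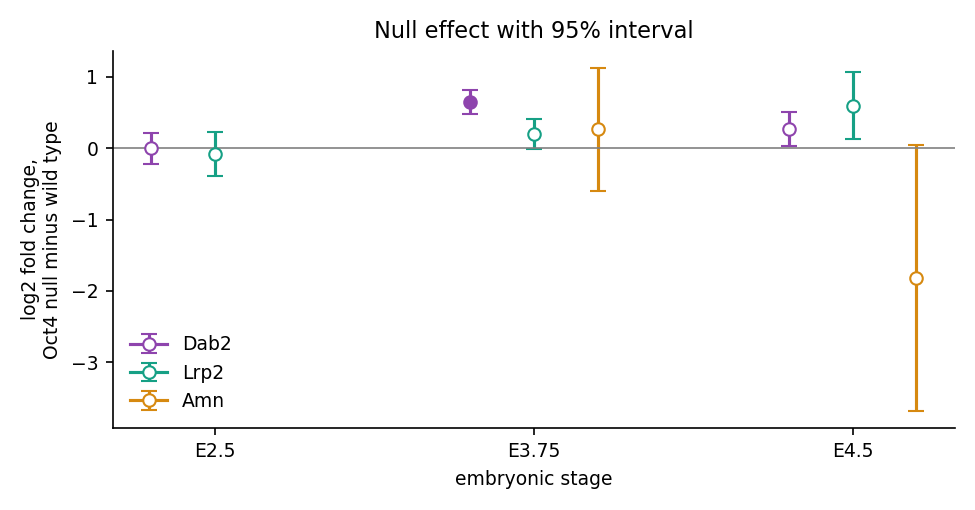
Difference of log2(CPM + 1), Oct4 null minus wild type, for each member at each stage, with 95% intervals from limma (n = 3 libraries per genotype); a filled point marks an adjusted p under 0.05 over all genes of the table. Dab2 at E3.75, at 0.65, is the filled point, and the interval of Amn at E4.5 is the widest, from -3.68 to 0.05.

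Levels at different stages come from tables that were scaled separately, so they are set side by side without a test. CPM were recomputed over the 5430 common genes for this purpose. Lrp2 on this scale averaged 191 ± 6.56, 542 ± 51.1 and 627 ± 133 in null libraries over the 3 stages in order (SD, n = 3 each). In wild type libraries the same 3 means were 204 ± 35.8, 475 ± 50.2 and 422 ± 132. In both genotypes every library of E3.75 and E4.5 was above every library of E2.5. The ratio of E3.75 to E2.5 was 2.84 in null and 2.33 in wild type libraries, and 3.19 and 2.60 with TMM factors (edgeR's scaling to a trimmed mean of ratios) over the 18 libraries. From E3.75 to E4.5 the wild type ratio was 0.888, within the spread of the libraries.

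Dab2 had another course. On the same scale it averaged 647 ± 59.7, 1012 ± 54.7 and 663 ± 57 in null libraries over the 3 stages, and 646 ± 55.4, 649 ± 42.4 and 551 ± 46.1 in wild type libraries (SD, n = 3 each). The ratio of E3.75 to E2.5 was 1.56 in null and 1.00 in wild type libraries, or 1.76 and 1.12 with TMM factors. The null libraries of E3.75 were above all 15 other libraries.

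Amn, the membrane anchor of cubilin, was near the lowest level that the tables hold. At E3.75 it had 9.25, 12.4 and 16 CPM in null libraries and 9.40, 15.3 and 6.94 CPM in wild type libraries. These were 8, 17 and 23 reads in null and 5, 18 and 4 reads in wild type libraries, the groups overlapped, and the fold of 1.20 had a 95% interval of 0.661 to 2.18 (adjusted p = 0.753, limma). At E4.5 it had 0, 12.2 and 10.4 CPM in null libraries and 29.5, 13.6 and 13.8 CPM in wild type libraries A, B and C. The null values were all below the wild type values. At this stage the groups of 22.2% of all genes did not overlap, counting both directions, and 12.2% had null libraries above. The reads of Amn were 0, 16 and 14 in null and 16, 7 and 15 in wild type libraries. In null library 1 a count of 0 allows up to 3 reads, or 8.22 CPM, counting error only. The log2 difference of -1.82 (95% interval -3.68 to 0.05, adjusted p = 0.335, limma) rested on that library and on the pseudocount. Leaving null library 1 out gave -0.61, while a pseudocount of 0.1 gave -2.92 and one of 5 gave -1.06. No difference in Amn was detected.

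Dab2 and Lrp2 were only weakly correlated. Across the 18 libraries the correlation of their log2(CPM + 1) values was 0.34 (Pearson) and 0.34 (Spearman), and 0.49 after the mean of each stage was removed. These are descriptions, since libraries share a stage, a genotype and a table scale.

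The genes whose pattern was most like each member were found by Pearson correlation of log2(CPM + 1) over the libraries of the tables that hold it. Their likeness to the member in these libraries therefore follows from the choice and is no separate result. For Lrp2, over 18 libraries and 5429 genes, they were Rrnad1 (0.98), the protease inhibitor Serpinb6a (0.97), Mfsd1 (0.96), the trophectoderm factor Cdx2 (0.96) and the lysosomal sialidase Neu1 (0.96). After stage means were removed these 5 were at 0.79 to 0.90. Cdx2 itself averaged 257 CPM in null and 259 CPM in wild type libraries at E2.5, 543 and 558 CPM at E3.75, and 608 and 542 CPM at E4.5. At E4.5 its lowest libraries were wild type A at 470 CPM and null 1 at 502 CPM, each of which was also the lowest of its genotype in Lrp2.

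**Figure D3:**
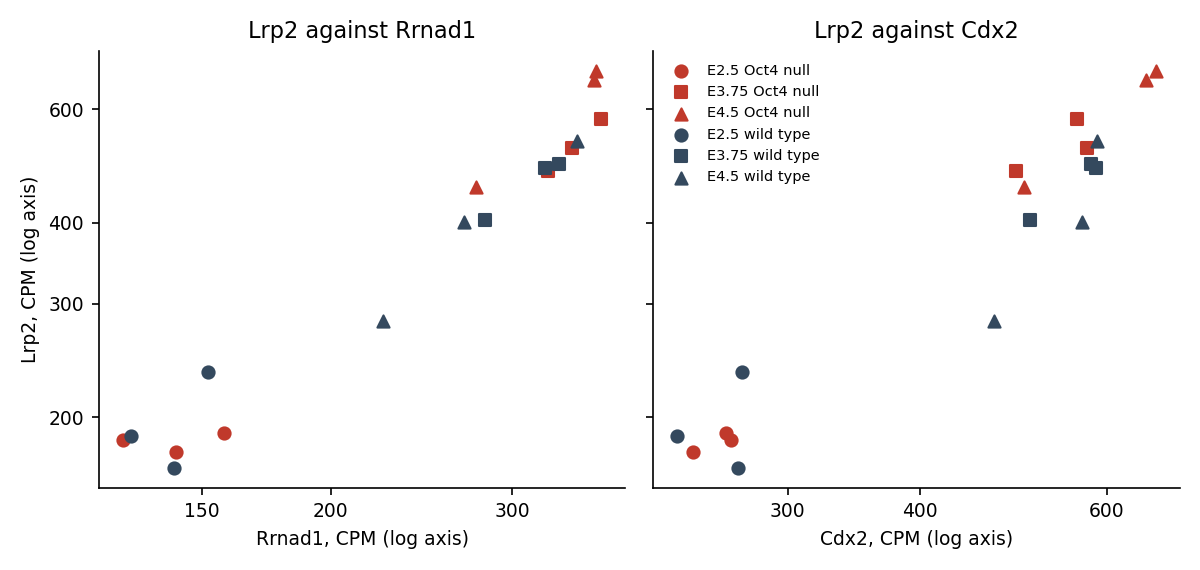
Lrp2 against Rrnad1 (left) and Cdx2 (right) in CPM on log axes, 1 point per library, with stage by shape, Oct4 null in red and wild type in blue. The 6 libraries of E2.5 lie at the low end in both panels, and the E4.5 libraries spread along the same line. Correlations over 18 libraries were 0.98 and 0.96, and both genes were chosen for this correlation.

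For Dab2 the most similar genes were Nabp1, a single-stranded DNA binding protein (0.88), Cd63-ps (0.84), the autophagy protease Atg4b (0.83), the deubiquitinase Mindy1 (0.83) and A730017L22Rik (0.83). Nabp1 had 101, 108 and 113 CPM in null libraries at E3.75, against 52.7, 62.8 and 53.8 CPM in wild type libraries. Its null libraries of that stage were above all others, as those of Dab2 were, which follows from choosing it by correlation over these libraries. Cd63-ps is a pseudogene that can share reads with its parent gene, so its values are uncertain. For Amn, over 12 libraries and 5881 genes, the most similar were Gm8199 (0.91), Gm13509 (0.90), Scmh1 (0.90), Phrf1 (0.88) and Ist1 (0.87), and the Spearman values of these 5 ran from 0.28 to 0.87. Each of these 5 had its lowest CPM of the 12 libraries in null library 1 of E4.5, the shallowest, where Amn had 0 reads. There Gm8199 and Scmh1 had 1 read each, Gm13509 3 and Phrf1 5.

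The partners of these proteins were described from lists by counts and medians, without a set test. Of 14 genes listed as partners of megalin, cubilin and Dab2, 8 were in the table of E3.75, of which 1 rose and 1 fell, with a median log2 difference of -0.05 against -0.04 over all genes, of which limma called 8.2%. The riser was Lrpap1, the chaperone that keeps LDL receptor family members from binding ligands early in the secretory path. It had 1780, 2045 and 1843 CPM in null libraries, against 1369, 1525 and 1416 CPM in wild type libraries (log2 difference 0.39, SE 0.07, adjusted p = 0.00133, limma). All its null libraries were above its wild type libraries. Gipc1, a PDZ protein that binds the tail of megalin, fell to 57.7 ± 11.8 CPM in null libraries, against 90.2 ± 13.5 CPM in wild type libraries (SD, n = 3 each; -0.64, adjusted p = 0.037). With the first 2 libraries of each group only Lrpap1 of this list passed.

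Of 18 LDL receptor family members and other endocytic receptors, 7 were measured at E3.75, with a median log2 difference of 0.35. While limma called 3.6% of all genes higher, 1 of this list rose. It was Scarb2, a lysosomal membrane receptor outside the LDL family, at 173 ± 12.3 CPM in null and 116 ± 15.1 CPM in wild type libraries (SD, n = 3 each; 0.58, adjusted p = 0.0117, limma). With the first 2 libraries of each group 0 of the 7 passed in limma. With all libraries 4 had an unadjusted p under 0.05, as 1513 of all 6648 genes did. From this list edgeR called 2 and DESeq2 1. Beside them, edgeR called 8.3% of all genes and DESeq2 6.65% of the 4328 it gave an adjusted p.

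Of 30 genes of the clathrin coat and its AP-2 adaptor complex, 18 were measured at E3.75, of which 3 fell and 0 rose, with a median log2 difference of -0.21, while 4.6% of all genes were called lower. The fallers were accessory factors. Gak, the kinase that takes part in removing clathrin from vesicles, had 109, 107 and 120 CPM in null libraries, against 220, 166 and 196 CPM in wild type libraries (-0.78, SE 0.14, adjusted p = 0.00103, limma). Reps1 (-0.64, adjusted p = 0.0132) and Necap2 (-0.40, adjusted p = 0.0476) also fell. Of the 7 clathrin chain and AP-2 subunit genes measured, 0 passed in limma. Clta, a clathrin light chain, had the highest level, at 1838 CPM in null and 1796 CPM in wild type libraries (adjusted p = 0.807), and Ap2b1 came nearest to the threshold, at 210 and 267 CPM (adjusted p = 0.0765). With the first 2 libraries of each group, Gak and Reps1 passed.

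Ligand genes were few. Of 19 listed, 4 were measured at E3.75, and 1 fell, while 4.6% of all genes were called lower. Apoe, an apolipoprotein that LDL receptor family members bind, had 43.9, 48.7 and 43.8 CPM in null libraries and 137, 70.5 and 90.3 CPM in wild type libraries (-1.06, SE 0.21, adjusted p = 0.00245, limma). It also passed with the first 2 libraries. At E3.75 edgeR called 2 partners, 2 clathrin and AP-2 genes and 1 ligand gene, and DESeq2 1, 2 and 1.

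At E2.5, 0 of 10 partners, 0 of 7 receptors and 0 of 24 clathrin and AP-2 genes passed in limma, while 4, 2 and 5 had an unadjusted p under 0.05, edgeR called 2, 1 and 1, and DESeq2 2, 1 and 1. Over all 7082 genes 1444 had an unadjusted p under 0.05, a share close to that of the receptor and clathrin lists. Limma called 0.593% of all genes, with 0.409% higher in null libraries, and edgeR 2.53%. DESeq2 called 4.27% of the 5434 genes it gave an adjusted p. Snx17, a sorting nexin that recycles LDL receptor family members, stood at 37.8 ± 3.83 CPM in null and 71.1 ± 12.3 CPM in wild type libraries (SD, n = 3 each; adjusted p = 0.0605). The transferrin receptor Tfrc stood at 208 ± 24.9 and 129 ± 16 CPM (adjusted p = 0.0557), and the lipid phosphatase Synj1 at 19.5 ± 3.8 and 50 ± 10.8 CPM (adjusted p = 0.0512). In the ligand list, 1 of 4 rose, Ctsb, which is a lysosomal protease and no ligand, at 403 ± 46.7 and 227 ± 34.6 CPM (adjusted p = 0.0239). At E4.5, 0 of 8 partners, 0 of 8 receptors, 0 of 21 clathrin and AP-2 genes and 0 of 5 ligands passed in limma, while 1, 2, 4 and 2 had an unadjusted p under 0.05, edgeR called 0, 0, 0 and 1, and DESeq2 0, 0, 1 and 1. Limma called 0% of all genes at this stage and edgeR 0.642%, and 985 of 6545 had an unadjusted p under 0.05. DESeq2 called 4.29% of the 2611 genes it gave an adjusted p. Snx17 stood at 146 ± 9.89 CPM in null and 198 ± 17 CPM in wild type libraries (adjusted p = 0.193, limma). Apoe stood at 119 ± 5.3 and 207 ± 38.1 CPM (adjusted p = 0.125, limma).

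**Figure D4:**
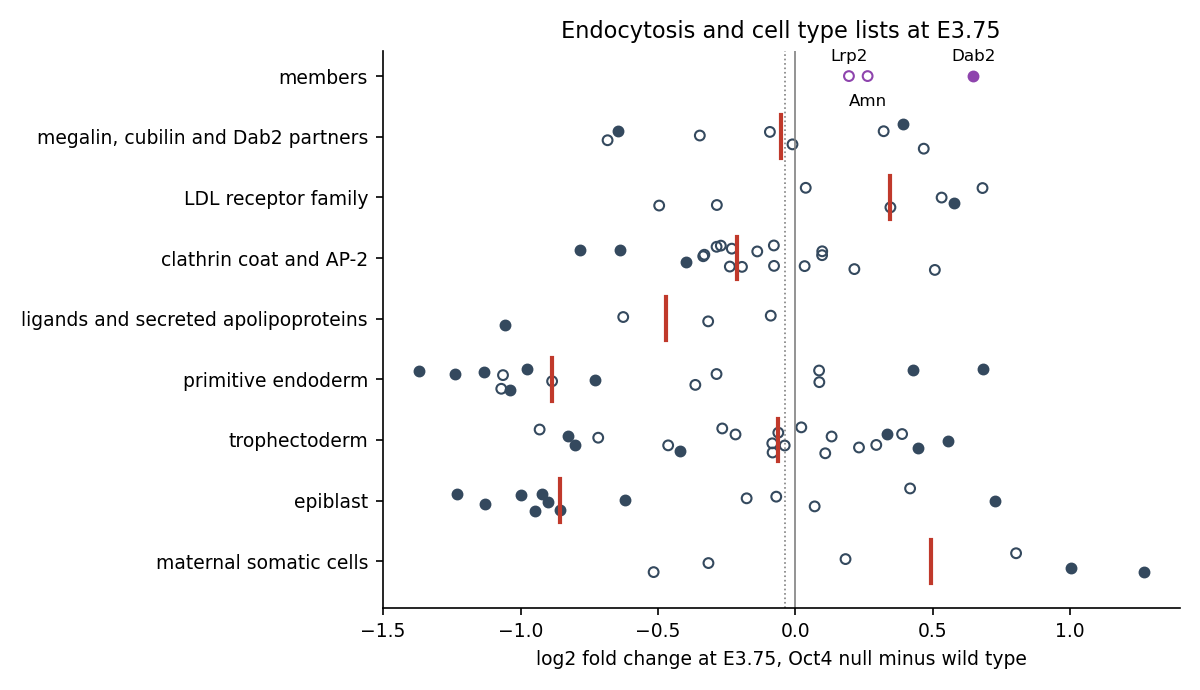
Difference of log2(CPM + 1) at E3.75, Oct4 null minus wild type, for the 3 members measured (top row) and the measured genes of 8 lists, 1 point per gene. Filled points passed the limma threshold, red bars are list medians and the dotted line is the median of all genes (-0.04). Dab2, at 0.65, lies above Lrp2 and Amn and below some list genes, such as the globins Hba-a1 and Hbb-bs. Most primitive endoderm and epiblast genes lie below 0.

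Markers of primitive endoderm, trophectoderm and epiblast were counted at E3.75, and as lists they did not rise as Dab2 did. Of 23 primitive endoderm genes, 15 were measured, 2 rose and 6 fell, with a median log2 difference of -0.89, and their summed level was 1053 to 1193 CPM in null and 1143 to 1346 CPM in wild type libraries. Lamb1 fell by 0.98, Lama1 by 1.13 and Sparc by 0.73, while Cited1 was higher by 0.68 on the log2 scale. Of 24 trophectoderm genes, 21 were measured, 3 rose and 3 fell, with a median of -0.06 and summed levels of 13223 to 14758 CPM in null and 14095 to 14812 CPM in wild type libraries. Of 19 epiblast genes, 13 were measured, 1 rose and 8 fell, with a median of -0.86 and sums of 1721 to 1804 CPM in null and 1730 to 2053 CPM in wild type libraries. These counts are from limma, which called 8.2% of all genes. For the 3 lists in the same order edgeR called 8, 6 and 8 genes and DESeq2 4, 4 and 3. With the first 2 libraries of each group 5, 3 and 3 genes of these lists passed, against 155 of all 6648 genes. The part of these cell types in the Dab2 difference was not tested.

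Maternal cells were looked at in the same way. Of 19 genes of maternal blood, oviduct, uterus and cumulus cells, 6 were measured at E3.75 and 2 rose, the globins Hba-a1 (1.27) and Hbb-bs (1.00). Limma called 3.6% of all genes higher at this stage. Of the 6, edgeR called 2 and DESeq2 1. Hba-a1 had 93.6, 37.8 and 57.0 CPM in null libraries, against 20.7, 28.9 and 22.6 CPM in wild type libraries. Among the null libraries, null 1 held the most Hba-a1, null 3 the most Dab2 and null 2 the least of both. Without null library 1 Dab2 was higher in null by 0.62 (adjusted p = 0.000713, limma). Null libraries 2 and 3, which stayed in that fit, still held more Hba-a1 than any wild type library, so it cannot separate Dab2 from the globins. The other 4 measured, Hbb-bt, Lyz2, Wfdc2 and Muc1, did not pass, at log2 differences of 0.80, 0.18, -0.52 and -0.32, and the remaining 13 were not among the genes of that table. The summed level of the list was 260 to 538 CPM in null and 199 to 253 CPM in wild type libraries, and the part of maternal RNA in the Dab2 difference was not tested.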

How the data were processed

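Each stage has 1 table of CPM that the authors deposited, in which every library sums to 1000000. edgeR and mm9 are named in the submitters' processing notes, and the aligner, counter and strand setting are not given there. Dividing each library by its smallest step gave whole reads for all 121650 of 121650 values (within 0.01 reads). Intervals cover spread between libraries, floors counting error only.

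limma 3.58.1 (R 4.3.3) was fitted per stage to log2(CPM + 1) with a variance trend, two-sided, Benjamini-Hochberg over all genes, threshold 0.05; such folds understate changes of low genes. Contrasts between stages used 6 group means over 18 libraries. edgeR 4.0.16 and DESeq2 1.42.0 ran on the recovered reads. In simulated reads for E3.75 (6648 genes), limma found 95% of genes changed 4-fold and 68% of those changed 2-fold, with 3.55% of calls false. The same shares were 95%, 78% and 2.81% for E2.5, and 89%, 52% and 4.73% for E4.5. They hold for the simulated reads only. The share of false calls in the measured libraries is not given by them, since libraries of a group may not be independent.

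Members and lists were chosen with earlier results of these data known. Named were the members, Pou5f1, the 5 genes most correlated with each member and, per list and stage, up to 4 passing genes by smallest p, or 2 where none passed; not every gene so named is printed, and Clta, Ap2b1, Hbb-bt, Lyz2, Wfdc2 and Muc1 were added with their values known. The wild type columns of E4.5 share 1 header name. The mix check used genes with at least 5 reads per library.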

Additional observations from a re-analysis of the deposited data

Results flagged for a closer look

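The null effect on Dab2 differed between stages by a test of the difference itself: null minus wild type was greater at E3.75 than at E2.5 by 0.65 on the log2(CPM + 1) scale (SE 0.14, adjusted p = 0.0317 over 5430 genes, limma over 18 libraries). Null libraries averaged 986 CPM and wild type libraries 630 CPM at E3.75, against 623 CPM in null and 622 CPM in wild type libraries at E2.5. The call was lost without the third library of each group and in 9 of the 18 fits without 1 library, in which the difference itself was 0.57 to 0.71.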

How the results depend on the processing

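Dab2 at E3.75 kept its direction and its call in all 17 alternatives (0.60 to 0.70 on the log2 scale, adjusted p of 0.00123 or less). The Dab2 difference of E3.75 minus E2.5 lost its call with the first 2 libraries of each group (0.64), and single libraries left out gave 0.57 to 0.71; the average over stages lost its call with the first 2 libraries (0.29). Fewer libraries entered these fits. Lrp2 at E4.5 passed with all 18 libraries in one fit (0.59) and did not with the first 2 libraries of each group (0.53). Without single libraries its difference of E4.5 minus E2.5 was 0.44 to 0.90 and its average 0.16 to 0.31. Values near 0 turned sign: Dab2 at E2.5 was 0.0180 with TMM factors, 0.0155 with DESeq2 size factors, 0.0199 in edgeR, 0.0175 in DESeq2, 0.05004 with thinned reads and -0.0600 to 0.0753 with single libraries left out, Lrp2 at E2.5 was -0.19 to 0.0528 with single libraries left out, and Amn at E3.75 was -0.15 with the first 2 libraries. The cause was not tested. With the first 2 libraries at E3.75, an alternative chosen after seeing the data, 155 of 6648 genes passed in place of 545, and of the lists 1 partner, 0 receptors, 5 primitive endoderm, 3 trophectoderm and 3 epiblast genes.

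Same-numbered libraries of the 2 genotypes did not deviate together (correlations -0.03 to 0.12 at E2.5 and E3.75), so the numbers were not taken as pairs. With the replicate block Dab2 at E3.75 was 0.65 (adjusted p = 0.000143) and no other member's call changed. No paired analysis was possible at E4.5 because the wild type columns carry no numbers. Depth limits Amn most, at 0 to 23 reads a library.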
